A study of Mus musculus with 15 samples.

Results

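NRL occupancy in the mature mouse retina at postnatal day 28 (P28) was compared with that at postnatal day 10 (P10) at every one of the 8996 genomic intervals (peaks) that were quantified in the series. The 4 libraries compared were P10 replicates 1 and 4 and P28 replicates 3 and 4, out of 8 libraries with values and 15 that the labels list; the others were not analysed here. All came from dissociated retinas of C57BL/6J mice, with 250000 cells per experiment and an anti-NRL antibody. Apart from the replicate number, age was the only factor that differed in the labels. Libraries of postnatal days 2 and 4 (P2 and P4), made in the same way, entered only to estimate the spread between replicates. The assay was CUT&RUN, in which the bound antibody recruits a nuclease that releases the DNA beside the protein for sequencing. No library without the NRL antibody was analysed here, and nothing in the labels ties the replicates of an age to different animals. The p-values therefore measure the spread between these libraries, which may be technical.

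NRL is a basic leucine zipper (bZIP) transcription factor of the Maf family that directs retinal precursors to become rods rather than cones. It acts together with the homeodomain factor CRX and with NR2E3, a nuclear receptor that NRL itself switches on, at promoters and distal enhancers of rod genes. In the mouse, rods are still building their outer segments and synapses around P10 and are mature at P28.

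The values are RPKM (reads scaled to peak length and to the library), rebuilt from the deposited values with each peak's own width. Reads inside peaks numbered 195736 and 227692 at P10 and 98186 and 92360 at P28, with a median of 12, 15, 8 and 7 reads per peak in that order. At the median width, 3 reads correspond to between 1.16 and 1.53 RPKM in these libraries. Log2 values of the P10 replicates correlated across peaks with r = 0.89 and those of the P28 replicates with r = 0.71; peaks are not independent replicates. Reads in peaks made up 3.08% and 2.84% of the library scale at P10 and 1.52% and 1.51% at P28. Each comparison is therefore given on the deposited scale and again with every library centred on its median peak, which adds a constant of about 0.60 to every log2 difference. A peak is said to have fallen or risen on both scales when limma called it, at a Benjamini-Hochberg adjusted p under 0.05 over all peaks, in the same direction each time.

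NRL signal at P28 was lower than at P10 at most peaks, and the loss was uneven. The median peak changed by -0.69 on the log2 scale as deposited and by -0.09 after centring. On the deposited scale 1858 peaks (20.7%) fell and 116 (1.29%) rose. After centring, 770 (8.56%) fell and 385 (4.28%) rose. All 770 were also lower on the deposited scale and all 116 were also higher after centring, so 770 peaks fell and 116 rose on both scales. The share of calls that were higher was 5.88% as deposited and 33.3% after centring. In these bulk retinas, fewer cells with NRL at a site and less NRL per cell cannot be told apart. Nor can either be told apart from a technical drop in the share of reads in peaks, or from how the libraries were scaled. The number of calls on the deposited scale, 1974 in all, depended on every library: it was 507 without P10 replicate 1, 675 without P10 replicate 4, 1154 without P28 replicate 3 and 1154 without P28 replicate 4.

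**Figure D1:**
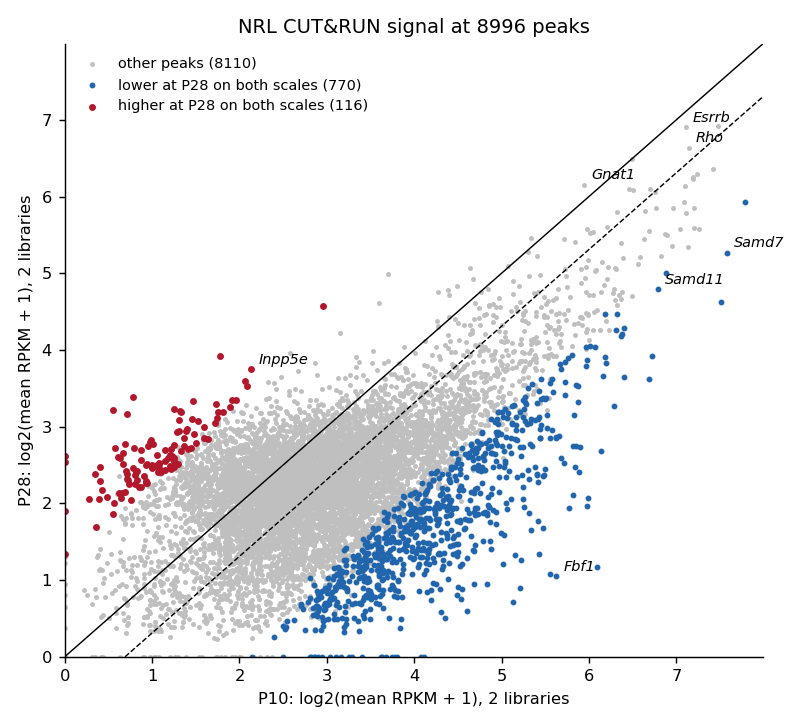
Mean NRL signal of each of the 8996 peaks at P10 (horizontal axis) and at P28 (vertical axis), both as log2(mean RPKM + 1) over 2 libraries. Blue points (770) were lower and red points (116) higher at P28 on both scales; the solid line marks equal signal and the dashed line the median change of -0.69, and most points lie below the solid line.

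The peaks of the table had been called at some age by the authors, which bounds what could be seen. The authors' P10 list holds 7520 peaks and their P28 list 3482, of which 2631 (75.6% of the P28 list) overlap a P10 peak; 2642 P10 peaks (35.1% of that list) overlap a P28 peak. Of the 770 peaks that fell, 641 were in the P10 list and not in the P28 list, 116 in both and 13 in neither. Of the 116 that rose, 110 were in the P28 list and not in the P10 list. Over the whole table, 4861 peaks were in the P10 list only and 848 in the P28 list only. The P10 list covered 7489 peaks of the table and the P28 list 3476, a make-up that favours falls. The lists were called at these same ages, so list membership is no separate support for the calls. Among the 2628 peaks of the table found in both lists, 116 (4.41%) fell and 1 rose. The median signal of the 770 peaks was 16.7 and 16.3 RPKM in the P10 libraries and 2.08 and 2.16 RPKM in the P28 libraries. In the younger libraries it was 3.17 and 3.39 RPKM at P2 and 4.24 and 11.2 RPKM at P4, where the replicates stood far apart. The 116 peaks that rose had a median of 0.979 RPKM in both P10 libraries and of 4.76 and 5.32 RPKM at P28. These group medians describe the peaks that the calls selected and are no separate support for them.

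**Figure D2:**
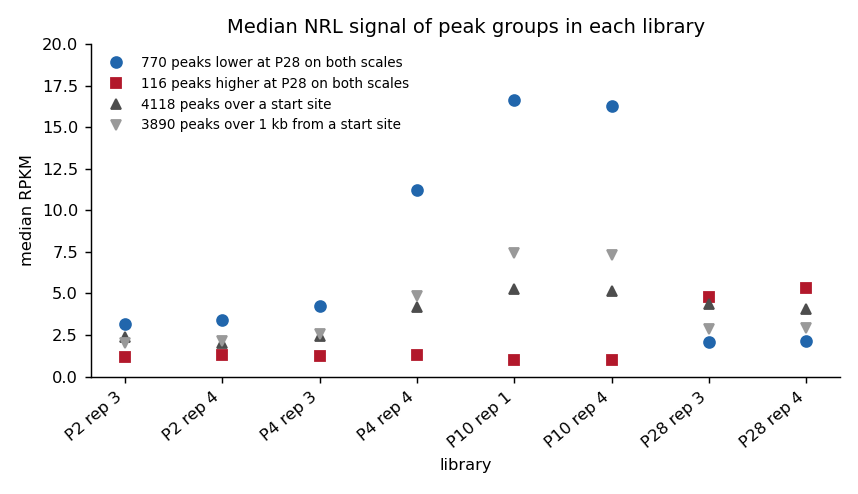
Median RPKM (vertical axis) of 4 groups of peaks in each of the 8 libraries (horizontal axis): peaks lower at P28 (blue circles), higher at P28 (red squares), over a start site (dark triangles) and over 1 kb from a start site (grey triangles). At P10 the peaks over 1 kb from a start site lie above the start-site peaks (7.46 and 7.29 against 5.26 and 5.16 RPKM), and at P28 below them (2.88 and 2.93 against 4.39 and 4.06 RPKM).

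Peaks over start sites lost less NRL signal than distal peaks. The 4118 peaks that overlap a transcription start site changed by a median of -0.33 as deposited (0.27 after centring), against -1.16 (-0.56) for the 3890 peaks more than 1000 bp from any start site. Of the start-site peaks 65 (1.58%) fell on both scales and of the distal peaks 620 (15.9%). Both numbers depended on every library: with the libraries centred, those lower were 3 start-site and 64 distal peaks without P10 replicate 1, 6 and 88 without P10 replicate 4, 17 and 271 without P28 replicate 3, and 18 and 351 without P28 replicate 4. The step lay close to the start site: peaks 1 to 1000 bp away had a median of -0.81 and 8.60% fell, those over 1 and up to 3 kb away had -1.24 and 16.7%, and those beyond 50 kb had -1.01 and 15.1%. By annotation, 385 of 2136 intronic peaks (18%) and 133 of 4981 promoter peaks (2.67%) fell. Rises on both scales also made up a larger share of the distal peaks, with 75 (1.93%) against 33 start-site peaks (0.801%). After centring alone the order was reversed: 146 distal peaks (3.75%) and 205 start-site peaks (4.98%) were higher. Peaks in the P28 list and not in the P10 list are a group that favours rises. There the distal peaks had a median of 1.05 and the start-site peaks of 0.67, and 30.9% and 5.82% rose.

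**Figure D3:**
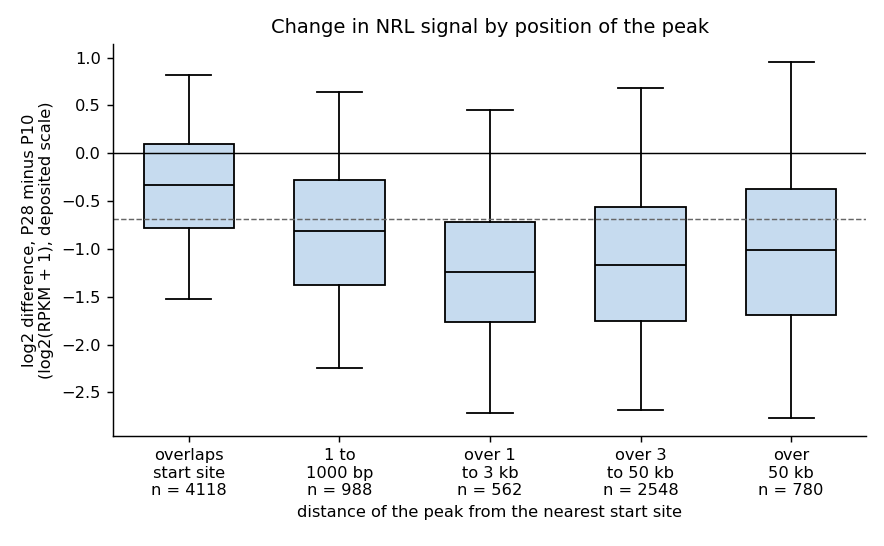
Log2 difference of P28 minus P10 (vertical axis, log2(RPKM + 1), deposited scale) for peaks grouped by distance from the nearest start site (horizontal axis, number of peaks under each box). Boxes span the quartiles with the median, whiskers the 5th to 95th percentile, and the dashed line is the median of all peaks (-0.69); the start-site box lies highest, with a median of -0.33.

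The difference between start-site and distal peaks was present at every level of signal. Peaks were divided into 5 equal classes by their mean over the 4 libraries. In the strongest class (mean of at least 8.72 RPKM) the start-site peaks changed by a median of -1.08 and the distal peaks by -1.59, and 8.50% against 33.6% fell. In the weakest class the medians were 0.08 and -0.66. Among peaks found in both the P10 and the P28 lists they were -0.34 at 1769 start sites and -0.97 at 656 distal sites. Stronger peaks fell more in both places. However, the classes were cut on the same values that were compared, and log2(RPKM + 1) compresses the changes of weak peaks. The order of the classes is therefore partly built in.

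The same shift was read from each library alone, where the library scale cancels. Peaks within 1 kb of a start site held 56.5% and 57.1% of the reads in peaks at P10 and 69.2% and 66.2% at P28. The P28 libraries were both above the P10 libraries. The means differed by 10.9 percentage points; a 2-sided exact permutation test gave p = 0.333, the smallest that 2 against 2 libraries allow. At P2 the shares were 66.3% and 59.1%, and at P4 they were 62.1% and 58.3%, all between the higher P10 and the higher P28 share.

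Because a peak over the start site and a distal peak of the same gene share a library, their changes were compared directly. In all, 2270 pairs of peaks belonged to 1 protein-coding gene each, both within 50 kb of one of its start sites (1210 genes), and limma tested the difference between the changes of the 2 peaks. The changes differed for 168 pairs (7.4%) in 141 genes. Among 801 pairs of a start-site peak and a peak more than 1000 bp away (570 genes), the start-site peak changed by a median of 0.62 more, on the log2 scale, than its partner. Of the 77 such pairs called, the distal peak had the lower of the 2 changes in 67 and the start-site peak in 10. These became 1 and 0 without P10 replicate 1, 4 and 1 without P10 replicate 4, 18 and 3 without P28 replicate 3, 27 and 3 without P28 replicate 4, and 4 and 0 with libraries scaled to their reads in peaks, while the median difference stayed between 0.58 and 0.64. The 10 exceptions lay at Map2, Zfp365, Eloa, Slc11a1, Aldh9a1, Cxxc5, Paqr3, Pcbp3, Inpp5f and Ywhae, which are named because they are the whole of that group. The distal peak changed downward only at Slc11a1 (-0.28) and Pcbp3 (-0.98). At the others its change was positive (0.88 to 2.40), and at Inpp5f the start-site peak changed by only -0.21. At Map2, which encodes a dendritic microtubule-associated protein, the start-site peak changed by -1.82 and the intronic peak by 2.40.

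At 17 genes 1 peak fell and another held its signal on the deposited scale. The definition required that the pair be called, that 1 peak fall on both scales, that the other change by -0.5 or more on the deposited scale, and that both reach the median signal of 5.06 RPKM; 19 of the 2270 pairs (0.837%) met it. The genes were Fbf1, Cdhr1, Dbp, Slc11a1, Hmgn2, Dpf3, Bicdl1, Hs3st3b1, Slco4a1, Srrm4, Cuedc1, Sergef, Diaph1, Mmd, Tbc1d14, Nucb2 and Cnot8. At Slc11a1 alone among these genes the start-site peak was the one that fell. Holding refers to the estimate: the 95% intervals of the held peaks spanned about 1 log2 unit on either side. After centring, the held peaks changed upward, from 0.18 at Sergef to 0.89 at Mmd, and none was called. The pairs were chosen for a called difference in these same libraries, so a kept direction is no separate support. All 19 pairs kept their direction when any 1 library was left out, but the pairs still called numbered 0 without P10 replicate 1, 1 without P10 replicate 4, 3 without P28 replicate 3 and 8 without P28 replicate 4.

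**Figure D4:**
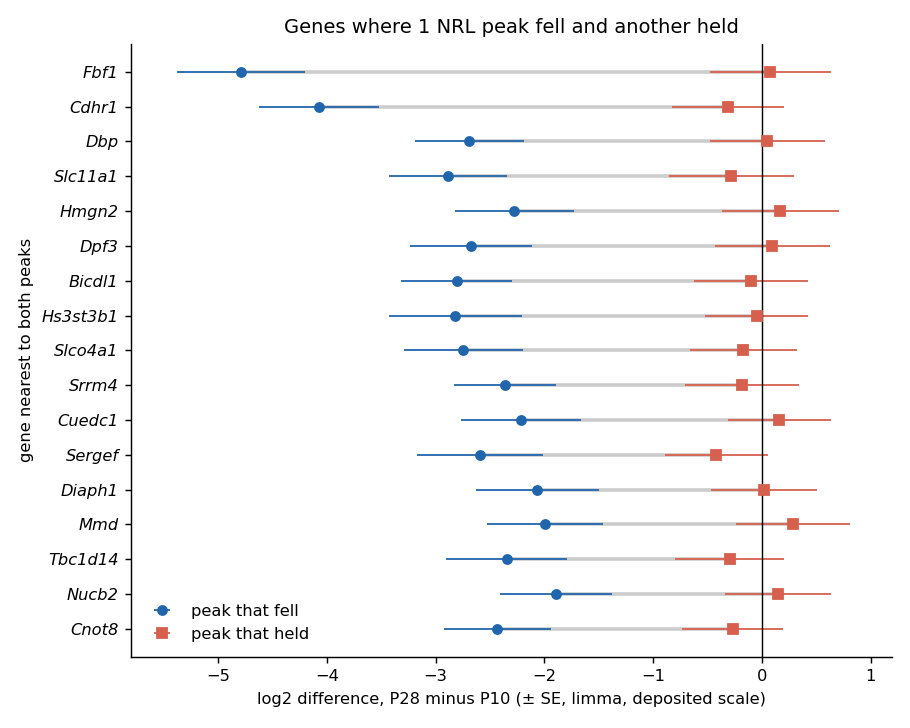
Log2 difference of P28 minus P10 (horizontal axis, deposited scale, bars ± SE from limma) for the peak that fell (blue circles) and the peak that held (red squares) at each of 17 genes (vertical axis, 1 pair per gene). The held peaks lie between -0.42 and 0.28 and the fallen peaks between -4.79 and -1.89.

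The clearest case was Fbf1, which encodes a protein of the transition fibres at the base of cilia. The peak at chr11:116171940-116172092 (GRCm38.p6, counted from 1), 3774 bp upstream of the nearest Fbf1 start site and annotated as 3′ UTR, had 52.5 and 44.0 RPKM at P10 and 0 and 2.14 RPKM at P28. The libraries of each age did not overlap, and 105 reads at P10 compared with 2 at P28 (a ratio of 45.9, exact 95% interval 12.4 to 384). This peak fell by 4.79 on the log2 scale (SE 0.59, limma, adjusted p = 5.33e-05) and by 4.19 after centring (adjusted p = 0.000921). The peak over the start site, chr11:116168161-116168316, had 3.03 and 12 RPKM at P10 and 5.96 and 7.35 RPKM at P28. Its P28 values lay inside the P10 range, and its change was 0.07 (95% interval -1.07 to 1.22). The changes of the 2 peaks differed by 4.87 (SE 0.74, limma over all pairs, adjusted p = 0.00365).

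Cdhr1, a photoreceptor cadherin at the base of the outer segment that is mutated in cone-rod dystrophy, showed the same arrangement. The peak in intron 4, chr14:37094558-37094709, had 14.5 and 17.2 RPKM at P10 and no read in either P28 library, so the signal was at least 10.2-fold lower (against 3 reads over both P28 libraries). The peak over the start site, chr14:37098225-37098444, had 7.88 and 7.94 RPKM at P10 and 8.45 and 4.47 RPKM at P28. The start-site values of both ages overlapped while those of the intronic peak were far apart. The changes differed by 3.76 (SE 0.64, limma, adjusted p = 0.0037).

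The held promoters of both genes are shown beside promoters where NRL signal rose or fell, so that the letters beside these start sites can be compared. Each sequence is the 250 bases before the start site, from the RefSeq table of GRCm38.p6, 5′ to 3′ on the gene's strand, chosen so that it overlaps the peak; the overlap is 97 to 250 bases, so part of a window can lie outside the peak. Capitals mark, on either strand, the Maf half-site TGCTGA, the AP-1 element TGANTCA bound by Jun and Fos dimers, and the CRX site TAATCC. The first and the second of these can overlap.
Fbf1, peak held, chr11:116168179-116168428, minus strand: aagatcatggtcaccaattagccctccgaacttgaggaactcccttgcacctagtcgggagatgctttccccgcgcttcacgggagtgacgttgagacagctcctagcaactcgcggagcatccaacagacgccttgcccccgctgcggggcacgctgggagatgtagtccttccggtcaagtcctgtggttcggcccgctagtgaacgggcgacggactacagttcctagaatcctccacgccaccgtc
Cdhr1, peak held, chr14:37098348-37098597, minus strand: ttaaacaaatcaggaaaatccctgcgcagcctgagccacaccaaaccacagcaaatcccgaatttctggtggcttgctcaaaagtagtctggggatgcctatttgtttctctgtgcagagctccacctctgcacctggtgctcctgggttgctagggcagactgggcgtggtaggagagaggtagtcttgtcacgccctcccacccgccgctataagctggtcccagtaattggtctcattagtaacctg
Slco4a1, peak held, chr2:180460728-180460977, plus strand: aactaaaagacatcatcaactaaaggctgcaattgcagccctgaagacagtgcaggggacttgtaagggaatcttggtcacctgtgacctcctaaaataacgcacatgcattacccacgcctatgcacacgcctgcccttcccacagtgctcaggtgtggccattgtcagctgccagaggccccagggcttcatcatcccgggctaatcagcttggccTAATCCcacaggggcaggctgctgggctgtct
Inpp5e, peak rose, chr2:26409220-26409469, minus strand: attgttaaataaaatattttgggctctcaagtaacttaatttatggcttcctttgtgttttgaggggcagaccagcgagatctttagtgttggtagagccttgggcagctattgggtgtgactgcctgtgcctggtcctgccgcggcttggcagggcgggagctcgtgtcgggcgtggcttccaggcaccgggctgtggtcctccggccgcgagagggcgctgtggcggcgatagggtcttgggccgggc
Tomm22, peak rose, chr15:79670618-79670867, plus strand: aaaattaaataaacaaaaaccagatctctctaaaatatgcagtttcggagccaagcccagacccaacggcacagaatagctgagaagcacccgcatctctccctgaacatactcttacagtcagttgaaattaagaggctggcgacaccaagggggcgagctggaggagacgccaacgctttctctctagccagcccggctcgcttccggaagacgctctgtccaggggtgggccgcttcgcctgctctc
Samd7, peak fell, chr3:30746043-30746292, plus strand: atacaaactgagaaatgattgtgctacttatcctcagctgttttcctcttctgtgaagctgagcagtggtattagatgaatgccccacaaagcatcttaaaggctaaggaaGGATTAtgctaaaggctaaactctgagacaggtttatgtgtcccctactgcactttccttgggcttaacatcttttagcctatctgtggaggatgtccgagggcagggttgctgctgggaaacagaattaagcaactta
Samd11, peak fell, chr4:156255343-156255592, minus strand: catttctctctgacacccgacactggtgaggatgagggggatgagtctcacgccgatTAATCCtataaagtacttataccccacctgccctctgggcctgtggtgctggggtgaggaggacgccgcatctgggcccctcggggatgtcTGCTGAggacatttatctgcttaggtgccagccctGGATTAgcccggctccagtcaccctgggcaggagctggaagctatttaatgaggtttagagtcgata
Rps19, peak fell, chr7:24884342-24884591, plus strand: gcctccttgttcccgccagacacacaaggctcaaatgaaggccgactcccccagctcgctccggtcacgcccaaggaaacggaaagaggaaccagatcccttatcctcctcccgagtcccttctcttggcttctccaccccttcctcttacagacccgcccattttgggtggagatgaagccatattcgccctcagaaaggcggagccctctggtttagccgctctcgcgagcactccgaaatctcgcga

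Samd11 has 1 TGCTGA and 2 CRX sites, Samd7 and Slco4a1 have 1 CRX site each, and the other windows shown, that of the fallen Rps19 peak included, have none of the 3 motifs. Of all windows read for such peaks, 1 of 7 where the signal held, 0 of 4 where it rose and 3 of 4 where it fell had at least 1 of the motifs. The windows of fallen peaks were chosen after their values had been seen. Over all 3145 of the 4118 start-site peaks that could be matched to a promoter window of 300 bases (250 before to 50 after the start), 16.7% held TGCTGA, against 19.5% of the 32851 windows in the table. The share was 28.6% (12 of 42) for start-site peaks that fell, 8.0% (2 of 25) for those that rose and 16.0% (454 of 2839) for those called on neither scale. TAATCC stood in 11.9%, 8.0% and 7.0% of these 3 groups and in 7.1% of all windows. TGANTCA stood in 4.8%, 0% and 4.0%, and in 7.8% of all windows. The GC box GGGCGG was in 64.3%, 52.0% and 71.0%, compared with 35.7% of all windows, and the median number of CpG was 14, 20 and 23, compared with 7. These shares were not tested, and a match is not a shown binding site.

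Dbp, a clock-controlled bZIP factor of the PAR family, had the closest pair, with centres 359 bp apart. The peak 184 bp inside the gene had 12.9 and 17.0 RPKM at P10 and 1.41 and 1.49 RPKM at P28. The peak that ends 11 bp before the start site had 7.16 and 11.3 RPKM at P10 and 9.86 and 8.93 RPKM at P28. The downstream peak fell by 2.69 (limma, adjusted p = 0.000889; 24 reads against 2, a ratio of 10.5 with an exact 95% interval of 2.61 to 91.7), whereas the upstream peak changed by 0.05 (interval -1.04 to 1.14). The difference of both changes was 2.74 (adjusted p = 0.0171).

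At 5 further genes of the ranking the held peak lay over a promoter and the fallen peak elsewhere in or near the gene. Hmgn2 encodes a nucleosome-binding high-mobility-group protein. Its peak 1461 bp upstream of a start site had 41.8 and 36.3 RPKM at P10 and 7.05 and 7.46 RPKM at P28 (-2.28, limma, adjusted p = 0.00522), while its start-site peak had 12.2 and 9.65 RPKM and then 12 and 12.7 RPKM (0.17). Dpf3, which encodes a subunit of the BAF chromatin remodelling complex, had a held peak over one start site (7.45 and 6.74 RPKM, then 11.5 and 4.98 RPKM). Its fallen peaks lay 192888 and 185356 bp away, centre to centre, and 365 and 7855 bp upstream of another start site; the first is annotated as promoter and the second as intron. They had 46.5 and 47.3 RPKM and then 4.75 and 8.78 RPKM at one site, and 28.2 and 24.8 RPKM and then 5.36 and 3.77 RPKM at the other. Hs3st3b1 (a heparan sulphate sulphotransferase) changed by -2.82 at a peak 37553 bp downstream and by -0.05 at the start site. Slco4a1 (an organic anion and thyroid hormone transporter) changed by -2.75 in intron 5 and by -0.17 at the start site. Srrm4, the splicing regulator of neuronal microexons, changed by -2.36 in intron 1 and by -0.18 at the promoter. Pair differences for these 5 genes ran from 2.18 to 2.77 (limma, adjusted p from 0.0209 to 0.0352).

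Bicdl1 and Slc11a1 completed the ranking. At Bicdl1, which encodes a dynein adaptor, the fallen peak was in intron 4 (28.3 and 18.6 RPKM, then 2.72 and 2.15 RPKM). Held peaks stood in intron 2 (10.9 and 6.90 RPKM, then 7.14 and 9.05 RPKM) and intron 1 (6.46 and 10.2 RPKM, then 6.35 and 10.9 RPKM). None of these 3 peaks was annotated as a promoter. At Slc11a1, a metal ion transporter of phagocytes, the start-site peak went from 15.1 and 10.3 RPKM to 0.803 and 0.848 RPKM. An intergenic peak 3290 bp from a start site went from 12.1 and 8.80 RPKM to 10.9 and 6.30 RPKM (-0.28).

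When holding was defined after centring, 42 pairs in 36 genes met the definition, among them Tef and Rdh8 of the gene lists. Tef, another PAR bZIP factor, had 4 peaks. The one in intron 1 went from 19.4 and 25.2 RPKM to 1.36 and 0 RPKM (37 reads against 1, a ratio of 32.4, exact 95% interval 5.46 to 1313). It fell by 3.91, while the start-site peak changed by -1.02, a difference of 2.89 (limma, adjusted p = 0.0153). Rdh8, the retinol dehydrogenase of photoreceptor outer segments, fell by 2.98 in intron 1 and changed by -0.69 at the start site, a difference of 2.29 (adjusted p = 0.0256). At Casz1, a zinc finger factor of rod differentiation, the peak in intron 11 went from 58.5 and 57.3 RPKM to 2.52 and 6.08 RPKM. It fell by 3.56 and more than 4 of the other 5 Casz1 peaks, which changed by -1.13 to -1.34 (differences of 2.22 to 2.43, adjusted p from 0.0222 to 0.041). In all, 12 of 192 pairs at genes of the fixed lists were called, beside 168 of 2270 (7.4%) over all pairs.

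Of 302 genes with 3 or more peaks within 50 kb, 116 had at least 1 that fell on both scales, and 29 of these had 2 or more. The share over all peaks was 8.56%, and a gene with more peaks can more easily hold a fallen one. Whether these counts exceed that share was not tested. At 2 genes, Cdcp2 and Dlc1, every peak fell (3 of 3 each).

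At the genes by which rods are known, the strongest peaks differed in their change, and several could be said neither to hold nor to fall. Those of Sag (-1.10), Pde6b (-1.04) and Prph2 (-1.15) were not called. On the deposited scale those of Gnat1 and Esrrb changed least among the ones given here. After centring, Sag changed by -0.50, Pde6b by -0.44 and Prph2 by -0.55. Gnat1, the rod transducin alpha subunit, had 72.8 and 48.2 RPKM at P10 and 61.6 and 78.6 RPKM at P28 over its start site (0.23, interval -0.96 to 1.42). After centring this peak changed by 0.83 (interval -0.07 to 1.73). A weaker Gnat1 start-site peak, not called either, changed by 0.35 and after centring by 0.95 (interval 0.16 to 1.75). The strongest peak of Esrrb, an orphan nuclear receptor active in rods, had 158 and 115 RPKM and then 105 and 133 RPKM (-0.19, interval -1.34 to 0.96). Neither of these strongest peaks was called on either scale, and at both the libraries of the 2 ages overlapped on the deposited scale.

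The strongest peaks of 2 sterile alpha motif repressors did fall. Samd7 and Samd11 encode components of a Polycomb complex that silences non-rod genes in rods. The Samd7 peak in intron 1, chr3:30748258-30748698, had 225 and 156 RPKM at P10 and 36.9 and 38.2 RPKM at P28. Its start-site peak went from 97.6 and 70.0 RPKM to 12.2 and 10.9 RPKM. Neither overlapped between ages, and they fell by 2.29 and 2.74 (limma, adjusted p = 0.00721 and 0.00196; after centring 1.69 and 2.14, adjusted p = 0.0194 and 0.00617). The Samd11 start-site peak, chr4:156255049-156255698, went from 118 and 101 RPKM to 21.0 and 32.5 RPKM and fell by 2.02 (adjusted p = 0.0144; after centring 1.42, adjusted p = 0.0303).

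**Figure D5:**
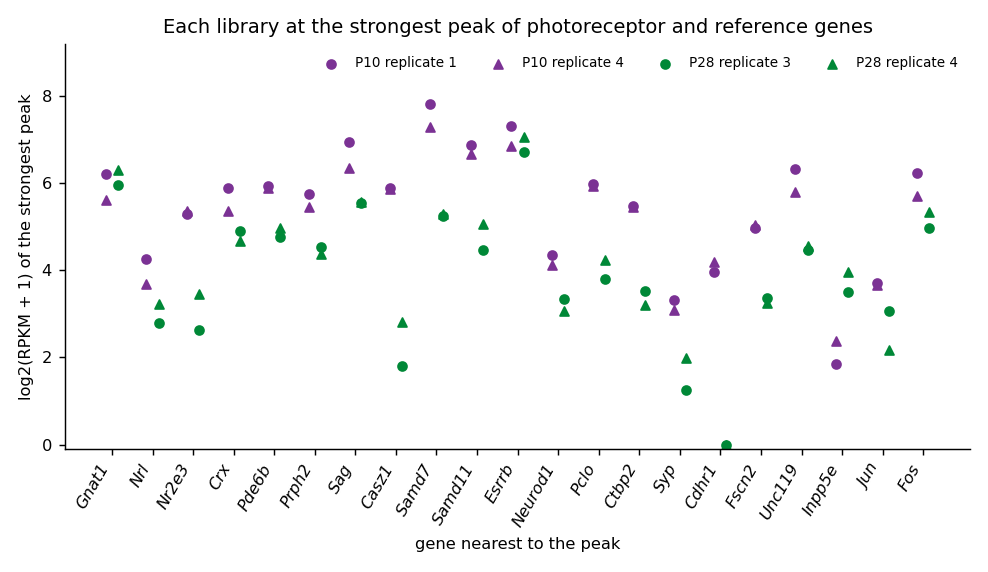
Log2(RPKM + 1) (vertical axis) of the strongest peak near each of 21 photoreceptor and reference genes (horizontal axis) in the P10 libraries (purple) and P28 libraries (green); circles mark the first and triangles the second library of an age. The P10 and P28 points overlap at Gnat1 and Esrrb, lie clearly apart with P28 lower at Samd7, Casz1 and Cdhr1, and lie with P28 higher at Inpp5e.

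Of the 22 genes of photoreceptor transcription factors, 16 had a peak within 50 kb. At 5 of them the strongest peak fell on both scales, and none rose: Samd7, Samd11, Casz1, Nr2e3 and Rora. The median change of the list was -1.04 as deposited and -0.44 after centring, against -0.59 and 0.01 over the strongest peaks of all 5982 protein-coding genes with one; among those, 1055 (17.6%) were lower on the deposited scale and 447 (7.47%) fell on both scales. Nr2e3, the rod nuclear receptor, had a peak in exon 4 with 38.3 and 40.5 RPKM at P10 and 5.23 and 9.96 RPKM at P28, which fell by 2.29 (limma, adjusted p = 0.00605). Rora, a retinoid-related orphan receptor, fell by 2.04 in intron 1 (adjusted p = 0.00895). The strongest peaks of Nrl itself (-0.96, interval -2.07 to 0.16), Crx (-0.83, interval -1.97 to 0.32) and Neurod1 (-1.04, interval -2.17 to 0.10) were not called. Further Samd7, Casz1 and Nr2e3 peaks were lower on the deposited scale only (-1.45 to -1.70).

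Rod phototransduction genes had few called peaks. Of 23 genes 21 had a peak; the strongest peak was lower at 1 of them on the deposited scale (Unc119, a trafficking factor for transducin, -1.55, limma, adjusted p = 0.0478) and at none on both scales. The list median was -0.68 as deposited and -0.08 after centring, against -0.59 and 0.01 over the strongest peaks of all genes. A weaker peak at Pde6g (-1.45), a subunit of the rod phosphodiesterase, was also lower on the deposited scale only. So were 2 peaks assigned to the subunit gene Pde6a (-2.07 and -1.44). These lie in introns of Ppargc1b, 39033 and 45992 bp from the Pde6a start site, and the strongest Pde6a peak changed by -0.25. In the opposite direction, the start site of Guca1b (3.39 and 2.69 RPKM, then 9.26 and 7.05 RPKM), a guanylate cyclase activator, was higher only after centring (1.78, adjusted p = 0.0333).

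Of 15 outer segment and retinoid genes 13 had a peak, the strongest was lower on the deposited scale at 5, and Cdhr1 and Rdh8 fell on both scales; over all genes these shares were 17.6% and 7.47%. The list median was -1.16 as deposited and -0.55 after centring. Lower on the deposited scale only were peaks of Prom1 (-1.76), Pcdh15 (-2.22), Fscn2 (-1.69), Tulp1 (-1.59) and Prph2 (-1.62), genes of disc and outer segment structure. Abca4, the retinoid flippase of discs, had 4 peaks; one in an intron went from 4.46 and 0.589 RPKM to 7.31 and 5.41 RPKM and was higher only after centring (1.91, adjusted p = 0.0354). Its change differed from those of 2 of the other peaks (-1.16 and -1.02; limma over pairs, adjusted p = 0.0256 and 0.0491).

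Of 23 synapse genes of the photoreceptor terminal 15 had a peak. The strongest fell on both scales at 3 (Pclo, Ctbp2 and Nrxn3), against 7.47% of all genes, and the list median was -1.03 as deposited and -0.42 after centring. Pclo, a scaffold of the active zone, went from 62.7 and 60.1 RPKM to 13.0 and 17.9 RPKM at an exonic peak. Ctbp2, whose product RIBEYE builds the synaptic ribbon, went from 43.9 and 42.7 RPKM to 10.5 and 8.23 RPKM over a start site, and a second peak fell as well (-2.10 and -2.05, limma, adjusted p = 0.0168 and 0.00986). Nrxn3, a presynaptic adhesion molecule, went from 33.2 and 30.9 RPKM to 0 and 6.01 RPKM (-3.64, adjusted p = 0.00194). Elfn1 (-1.93) and Syp (-1.58) were lower on the deposited scale only, and the promoter peak of Egflam (pikachurin) was higher only after centring (1.62).

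Of 29 cilium genes 21 had a peak; the strongest was lower on the deposited scale at 6 and fell on both scales at 3, and 1 rose, with a list median of -0.62 (-0.01 after centring). Over all genes 17.6% were lower on the deposited scale and 7.47% on both. Besides Fbf1, both distal peaks of the Bardet-Biedl gene Ttc8 fell (-2.37 and -2.17; 24 reads against 3 at each, a ratio of 7.0, exact 95% interval 2.13 to 36.3), as did a promoter peak of the kinase gene Mak (-2.08). Bbs7 (-1.93), Rpgrip1 (-1.57), Arl13b (-2.01), Ift140 (-1.86) and a second Mak peak (-1.60) were lower on the deposited scale only. Inpp5e, the ciliary phosphoinositide phosphatase, rose at its promoter, chr2:26409208-26409387, from 2.63 and 4.16 RPKM to 10.3 and 14.6 RPKM (1.62, SE 0.51, limma, adjusted p = 0.0249; after centring 2.22, adjusted p = 0.0117). The peak rests on 9 reads at P10 and 28 at P28.

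NRL peaks near other bZIP genes were not called or lower, apart from 1 that was higher only after centring. Of 36 genes 22 had a peak; the strongest fell on both scales at 2, Tef and Bach1, a share near the 7.47% of all genes, and the list median was -1.09 (-0.49 after centring). Bach1 (-2.71), an intronic Bach2 peak (14 reads against 0, at least 4.08-fold lower) and a second Tef peak (-2.45) fell besides those already named. Jun (12.1 and 11.7 RPKM, then 7.43 and 3.51 RPKM; -1.06, interval -2.21 to 0.09) and the strongest of 3 Fos peaks (74.1 and 51.0 RPKM, then 30.2 and 39.6 RPKM; -0.81, interval -2.10 to 0.48) were not called. Junb (-1.53), Atf1 (-1.31) and Crem (-1.45) were lower on the deposited scale only, and Cebpg was higher only after centring (1.80).

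Among cone genes, 7 of 18 had a peak. The strongest was lower on the deposited scale at 3 and fell on both scales at 1, against 17.6% and 7.47% of all genes. The latter was Gnb3, the cone transducin beta subunit (24.7 and 14.4 RPKM, then 3.16 and 3.34 RPKM, a change of -2.23, limma, adjusted p = 0.007). Gulo (-1.48) and Clca3a1 (-1.91) were lower on the deposited scale only. Progenitor and Notch genes had a peak at 10 of 26, with a list median of -1.61 (-1.01 after centring). The strongest was lower on the deposited scale at 6 of these 10 and fell on both scales at 2, against the same shares of all genes. Among the 2 was Notch1 (12.5 and 17.9 RPKM, then 0.902 and 2.23 RPKM, a change of -2.69). Only 1 of the 11 progenitor peaks overlaps a start site, where the median over all such peaks was -0.33. Whether place bears on the list median was not tested. Jag1, Id3, Rbpj and Notch3 (-1.50 to -1.81) were lower on the deposited scale only.

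Housekeeping groups had medians near that of the strongest peaks of all genes (-0.59 as deposited, 0.01 after centring). Ribosomal protein genes had a peak at 22 of 32, with 21 of 25 peaks over a start site and a median of -0.51 (0.10 after centring). Rps19 fell over its start site (45.5 and 39.7 RPKM, then 13.0 and 9.54 RPKM; -1.84, limma, adjusted p = 0.0206) and Rps14 in an intron (-2.85); Rpl10a (-1.56) was lower on the deposited scale only. Cell cycle genes had a peak at 18 of 27 (15 of 22 peaks over a start site) and a median of -0.43 (0.18), with a fall at E2f3 (-2.19) and Cdkn1c (-1.70) lower on the deposited scale only. Glycolysis genes had a peak at 16 of 23 (14 of 28 over a start site) and a median of -0.67 (-0.06); peaks of Ldha (-1.52), Ldhb (-1.59) and Slc16a1 (-1.39), the lactate enzymes and a lactate transporter, were lower on the deposited scale only. Mitochondrial genes had a peak at 22 of 27 (19 of 28 over a start site) and a median of -0.50 (0.10). A peak of Nrf1, the factor that drives nuclear genes of respiration, fell (-2.21), and another Nrf1 peak, Sdhb and Tomm20 (-1.26 to -2.05) were lower on the deposited scale only. Tomm22, a receptor of the outer mitochondrial membrane import pore, rose over its start site from 4.85 and 0.960 RPKM to 10.7 and 7.56 RPKM (1.56, adjusted p = 0.0365), on 5 and 15 reads.

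Markers of other retinal cell types had few NRL peaks. None of 13 Müller glia genes and none of 17 microglia and vessel genes had one within 50 kb, compared with 21 of 23 rod phototransduction genes. Of 15 bipolar genes 5 had a peak, of 20 amacrine, horizontal and ganglion cell genes 3, and of 11 pigment epithelium genes 1. Nyx, the nyctalopin of ON bipolar cells (-2.23), and the glycine transporter gene Slc6a9 (-2.03) fell on both scales; Bhlhe23 (-1.35) and Mitf (-1.74) were lower on the deposited scale only, and Nefl was higher only after centring (1.43).

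Of the 770 peaks that fell and the 116 that rose (8.56% and 1.29% of all peaks), 489 and 12 passed further limits. These were a mean signal at or above the median, no overlap between ages and a protein-coding start site within 50 kb. The peaks had already been called, so the absence of overlap is no separate support. The 10 lowest, 1 per gene, were at Fbf1, Fignl2, Slc38a1, Agrn, Cdhr1, Crtc3, Fam110a, Tef, Gldc and Crebzf, with changes from -4.79 to -3.89 (limma, adjusted p from 5.33e-05 to 0.000723). Of these, 7 lay in introns and 1 within a promoter (Fam110a). Gldc, the glycine-cleaving enzyme of mitochondria, had the most reads behind its fall: 71.1 and 53.4 RPKM at P10 and 3.11 and 3.29 RPKM at P28 in intron 2, on 263 and 12 reads. Agrn, which encodes the synaptic organiser agrin, went from 38.9 and 45.2 RPKM to 1.49 and 1.57 RPKM in intron 2. Fignl2 went from 32.1 and 35.9 RPKM to 0.620 and 0.655 RPKM (a read ratio of 53.8, exact 95% interval 14.6 to 449). All 10 were in the P10 list and not in the P28 list, as were 4861 peaks of the whole table. The glutamine transporter gene Slc38a1 had no read at P28, so that its intronic peak was at least 7.87-fold lower. Crtc3 (54 reads against 2, a ratio of 23.6, exact 95% interval 6.23 to 200.02), a coactivator of CREB, Fam110a (68 against 2, 29.7, interval 7.92 to 251) and Crebzf (91 against 4), a bZIP corepressor, completed the group.

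The 10 highest rises were smaller and rested on fewer reads. They were at Scel, Map2, Pebp4, Inpp5e, Itsn2, Tgfb2, Tmem245, Tomm22, Lmx1a and Srprb, with changes from 2.71 to 1.40 (limma, adjusted p from 0.0014 to 0.0498). Read numbers at P28 over both libraries ran from 13 to 28. Scel, which encodes sciellin, had the largest rise, from 1.45 and 0 RPKM to 11.4 and 7.51 RPKM in intron 8 (1 read against 13, a ratio of 14.9 with an exact 95% interval of 2.23 to 631). The Map2 peak had 0 and 4.85 RPKM at P10 and 6.02 and 22.3 RPKM at P28, so its replicates differed widely. Promoters of Inpp5e, Tmem245, Tomm22 and Srprb, a subunit of the signal recognition particle receptor, made up 4 of the 10. All 10 were in the P28 list and not in the P10 list, as were 848 peaks of the whole table. The lists were called at these same ages, so this is no separate support for the rises.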

How the data were processed

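NRL CUT&RUN was performed on retinas at each age, with cleavage for 30 min and 10 pg of spike-in DNA, per the labels' protocols. Tools named in the submitters' processing notes are MACS2 2.2.5, Bowtie2 2.3.5.1, Picard 2.20.8, Trimmomatic 0.38, bedtools 2.29.0 and SAMtools 1.9, with the builds GRCm38.p6 and ASM584v2. Not given in the sources used here: how the library scale was set, whether the spike-in was used and which replicates entered each peak list. The deposited quantitation holds RPKM per peak and library (unit read from the values), and the authors' peak lists give a signal and a score per peak.

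Each deposited RPKM value proved to be a whole read number divided by the library scale and by a width. From column to column that width came from 39 rows earlier in a vector of 9035 widths, so 56.4% to 57.4% of peaks in the 4 libraries had been divided by a width off by more than 1.5 times. Whole reads were recovered for 100% of values (tolerance 0.001) and RPKM was rebuilt with each peak's own width. Rank correlation with the authors' signal rose from 0.690 and 0.693 to 0.751 and 0.750 at P10, and from 0.493 and 0.496 to 0.546 and 0.532 at P28.

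log2(RPKM + 1) was fitted with limma 3.58.1 (R 4.3.3; trend and robust empirical Bayes) over all 8 libraries with age as factor and 4 residual degrees of freedom, with no filter. Benjamini-Hochberg adjustment ran over 8996 peaks or 2270 pairs, and the threshold was 0.05. This scale compresses the fold changes of weak peaks. The procedure was also run on simulated reads in which only some peaks changed and no overall drop was set. That run does not measure how reliable the calls are in these libraries. Where read numbers are printed and an age had 1 to 3 reads, the scaled read ratio carries an exact 95% interval; where it had 0, the fold is a bound set at 3 reads over both libraries. Both cover counting error only. Distances, places and symbols are the authors' annotation; intron and exon numbers are from it. Gene identifiers of 8995 peaks matched a RefSeq table of GRCm38.p6, and 8245 peaks lay nearest a protein-coding gene. Python 3.11.15, NumPy 2.4.6, pandas 2.3.3 and Matplotlib 3.10.9 were used.

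Peaks were named by rule: the 10 lowest and 10 highest called on both scales with no overlap between ages, mean signal at or above the median and a protein-coding start site within 50 kb; every called peak of the gene lists; the strongest peak of 22 photoreceptor and reference genes; and the 10 genes with the lowest adjusted p among pairs where 1 peak fell and another held. The comparison, gene lists and rules were chosen with earlier results of these data known. Some peaks named by these rules are not reported here.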

Additional observations from a re-analysis of the deposited data

How the results depend on the processing

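Peaks called on the deposited scale numbered 1974 and called genes of the fixed lists 43. These became 1155 and 22 with each library centred, 294 and 8 with each library scaled to its reads in peaks, 886 and 28 with the values as deposited (no rebuilding of widths), 474 and 14 with a pseudocount of 0.1, and 3246 and 89 with only P10 and P28 libraries in the fit. A pseudocount of 5 gave 3116 peaks. Leaving out 1 library gave 507 to 1154 peaks and 12 to 25 list genes; the lone library of an age is then assumed to vary like the other groups. After centring, 1155 peaks became 1798 with only P10 and P28 libraries, 203 with a pseudocount of 0.1 and 93, 143, 373 and 456 without P10 replicate 1, P10 replicate 4, P28 replicate 3 and P28 replicate 4 (alternatives chosen after seeing the data). The replicate block, the labels' number as a factor, gave 432 peaks, 9 list genes and 0 called pairs; of the 19 pairs where 1 peak fell and another held, 0 stayed called and 16 had an unadjusted p under 0.05. P10 and P28 share only number 4 in the table, whose deviations correlated with r = -0.001; over all 9 same-numbered combinations of ages in the fit, r ran from -0.013 to 0.085 and none was above 0.1, so the libraries were treated as sharing only a number. Called pairs, 168, became 10 with libraries scaled to reads in peaks, 43 with the values as deposited, 2 with a pseudocount of 0.1, 525 with a pseudocount of 5, 355 with only P10 and P28 libraries, 93 with both peaks within 10 kb, and 4 to 67 with 1 library left out. Of the 19 pairs where 1 peak fell and another held, 2, 3 and 1 stayed called under the first 3 of these and 0 to 8 with 1 library left out; with holding defined after centring, 42 pairs met the definition. All 19 kept their direction under every alternative run. They were selected for a called difference in these same values, so this is no separate support. The difference in promoter share, 10.9 points, was 8.69 within 3 kb and 6.86 over peaks in both lists. Of the P28 list, 75.6% overlapped the P10 list; 69.4% did with an overlap of at least 0.5 of the P28 peak, and 51.8% against as many of the strongest P10 peaks. Over the named peaks, 1222 values stayed on their side of the threshold, 447 lost and 52 gained a call, and none reversed. limma-voom was run on peaks and not on pairs. Precision is limited by 7 to 15 reads per median peak.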
